A study of Mus musculus with 5 samples.

Results

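The 9 genes described here encode 7 prostanoid receptors and 2 prostaglandin transporters, and they were taken by gene symbol from the 45706 rows of the deposited table. The receptors were Ptger1, Ptger2, Ptger3 and Ptger4, which encode the EP1, EP2, EP3 and EP4 receptors of prostaglandin E2, Ptgir for prostacyclin, Ptgfr for prostaglandin F2α and Tbxa2r for thromboxane. The transporters were Slco2a1, which takes prostaglandins up into cells, and Abcc4, which exports prostaglandins and cyclic AMP. RNA was sequenced from PDGFRa+ cells sorted from the 4th and 5th mammary glands of Balb/c mice. There were 3 libraries from mice 6 days after weaning, here called involution day 6, and 2 libraries from nulliparous mice, which had never given birth. The series describes the libraries of a group as biological replicates and names no transgene or treatment in either group. The involution mice had also been through pregnancy and lactation, so these states and involution cannot be told apart.

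Prostanoids are short-lived lipids made from arachidonic acid by cyclooxygenases and terminal synthases, and they act near the cells that make them. EP2, EP4 and the prostacyclin receptor couple mainly to Gs and raise cyclic AMP, EP3 couples mainly to Gi and lowers it, and EP1, the prostaglandin F receptor FP and the thromboxane receptor TP couple mainly to Gq and raise calcium. Slco2a1 ends a prostaglandin signal by carrying the ligand into cells, where it is oxidised. After weaning the gland involutes: secretory epithelial cells die and are cleared while the stroma around them is remodelled.

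Values are the deposited log2 values, in which a row without reads stands at 3.57. They behave approximately as log2 values of scaled counts to which an offset of 11.8 was added. The lowest deposited value was 3.44, below that of a row without reads, so a fixed offset does not hold exactly near the floor. Values with the offset removed are therefore approximate, most of all for weakly expressed genes. Unlogged values summed to 41534962 to 43543757 in involution libraries, against 38105782 and 39488645 in nulliparous libraries. Pdgfra, the gene of the sorted receptor, stood at 16.09, 15.88 and 15.69 in involution replicates 1, 2 and 3, against 15.87 and 15.93 in nulliparous replicates 1 and 2. The mean of 12 fibroblast markers was 16.94 to 17.05 in involution libraries, against 16.67 and 16.75 in nulliparous libraries. RNA of other cell types was present and differed between libraries of a group. The mean of 14 macrophage markers was 9.60, 9.03 and 8.30 in involution replicates 1, 2 and 3, against 8.24 and 7.47 in nulliparous replicates 1 and 2. For 11 endothelial markers it was 9.82, 8.75 and 8.38, against 9.85 and 8.77 in the same order. Luminal epithelial markers stood at 11.05, 10.01 and 8.93, against 11.46 and 9.81. The milk protein gene Csn2 had the highest mean of them over the 5 libraries, at 14.90, 13.27 and 12.22 in involution replicates 1, 2 and 3, against 12.66 and 7.72 in nulliparous replicates 1 and 2. In bulk RNA, fewer cells of a type and less RNA per cell cannot be told apart.

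Promoter sequences of 3 receptor genes are shown because these genes had the 3 smallest p-values among the 9, Ptger3 and Ptger4 with higher and Ptgfr with lower RNA at involution day 6. They are RefSeq windows on GRCm38.p6 that end just before the annotated start, written 5′ to 3′ on the strand of the gene. The window of Ptgfr is cut to the part outside its GENCODE gene. Capitals mark the GC box GGGCGG on either strand and, in Ptger4, also a CCAAT box.

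Ptger3, chr3:157566626-157566875, plus strand: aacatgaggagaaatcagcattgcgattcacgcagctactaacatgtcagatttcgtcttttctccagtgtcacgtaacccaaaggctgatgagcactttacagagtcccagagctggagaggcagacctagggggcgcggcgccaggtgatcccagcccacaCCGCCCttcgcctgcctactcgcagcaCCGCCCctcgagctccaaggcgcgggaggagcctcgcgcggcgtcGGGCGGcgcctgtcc

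Ptger4, chr15:5244188-5244437, minus strand: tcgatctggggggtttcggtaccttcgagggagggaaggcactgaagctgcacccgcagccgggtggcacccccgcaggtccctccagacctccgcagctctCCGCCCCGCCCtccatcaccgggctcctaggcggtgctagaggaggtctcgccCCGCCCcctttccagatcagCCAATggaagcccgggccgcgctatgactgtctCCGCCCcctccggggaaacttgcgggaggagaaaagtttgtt

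Ptgfr, chr3:151837631-151837778, minus strand: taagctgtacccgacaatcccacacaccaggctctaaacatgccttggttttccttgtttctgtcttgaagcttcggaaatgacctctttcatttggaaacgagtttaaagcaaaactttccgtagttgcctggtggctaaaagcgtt

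The GC box occurred 3 times in the 250 bases before the Ptger3 start and 4 times before the Ptger4 start, where 2 of the copies overlap by 1 base. The stretch of Ptgfr printed above held none, and the 102 bases between it and the RefSeq start held 1. RefSeq windows were at hand for 8 of the 9 genes. Of the 8, 6 held a GC box within 250 bases, against 32.7% of all 32851 mouse windows of that length. Tbxa2r and Abcc4 had 2 windows each, and a gene counted if either matched, while the shares over all windows are per window. The Slco2a1 RefSeq start lies 19775 bases inside its GENCODE gene, and that of the second Abcc4 window 29288 bases inside. The CCAAT box was found in 3 of the 8, against 33.8% of all windows. Neither the full cyclic AMP response element TGACGTCA, the AP-1 motif TGANTCA, the STAT motif TTCNNNGAA nor the NF-kB consensus occurred in any of the 8, against 1.55%, 6.75%, 7.02% and 3.9% of all windows. Its shorter core TGACG was present in 1 of the 8, Tbxa2r, against 17.8%. Both strands were searched, and a match describes letters in a window, not binding.

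Each of the 9 genes had reads and a mean at least 10 scaled counts above the offset. In the limma test over the 28311 rows with reads, 0 of the 9 passed an adjusted p of 0.05, while 3 had an unadjusted p below 0.05. Of all rows tested, 1.97% passed and 19.9% had an unadjusted p below 0.05. With the filter of 10 scaled counts above the offset, called the offset filter here, 15912 genes were tested and 2 of the 9 passed. Ptger3 was higher and Ptgfr lower at involution day 6. Of all genes past this filter 11.3% passed, 6.65% with higher and 4.66% with lower values. The groups did not overlap for 5 of the 9 genes, Ptger3, Ptger4 and Abcc4 with higher and Ptgfr and Tbxa2r with lower values at involution day 6. Over all genes past the offset filter the groups did not overlap for 47.0%. The median difference of the 9 genes was -0.15, against -0.03 over all genes past the offset filter.

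**Figure D1:**
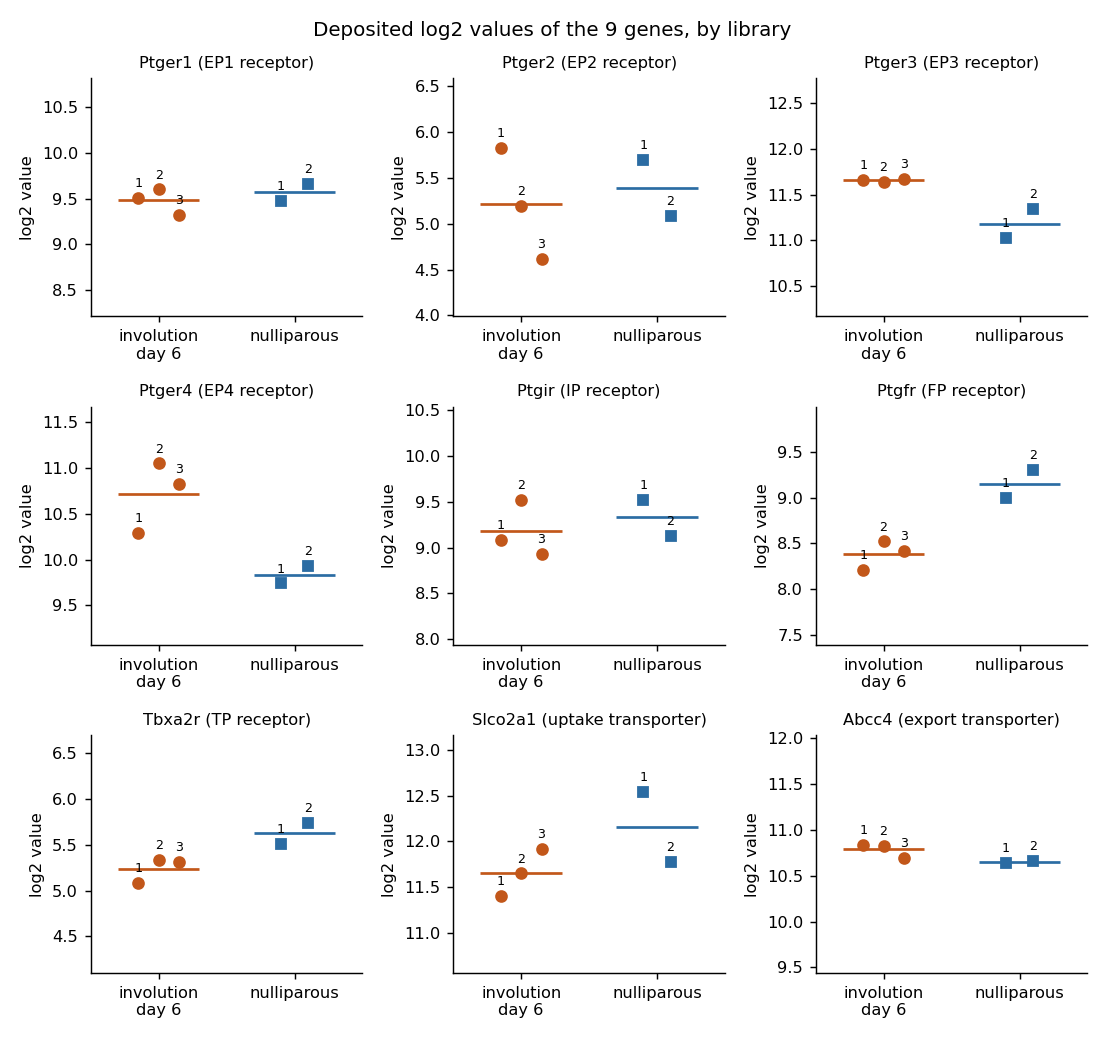
Deposited log2 values of the 9 genes in each library, with involution day 6 as circles and nulliparous as squares, replicate numbers beside the points and group means as lines; each panel spans the same range of log2 units. The 3 involution values of Ptger3 lie between 11.64 and 11.67, above both nulliparous values, and those of Ptgfr lie below both nulliparous values.

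Ptger3, the Gi-coupled EP3 receptor gene, lies on chromosome 3 from 157566892 to 157645888 on the plus strand of GRCm38. Its log2 values were 11.66, 11.64 and 11.67 in involution replicates 1, 2 and 3, against 11.03 and 11.34 in nulliparous replicates 1 and 2. The involution libraries were nearly level and stood above both nulliparous libraries, which differed more from each other. The difference was 0.48 ± 0.10 (log2, SE), or 1.39-fold, with an interval of 95% from 0.20 to 0.76. Its adjusted p was 0.103 in limma over rows with reads and 0.0397 with the offset filter. The second call held without nulliparous replicate 2 (adjusted p = 0.0315 in limma) and was lost without any other single library, at an adjusted p from 0.0849 to 0.132 in limma. GENCODE lists 3 transcripts of the gene, whose known splice forms differ in the tail of the receptor, and the single row of the table does not separate them.

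Ptger4, the Gs-coupled EP4 receptor gene, lies on chromosome 15 from 5206661 to 5244187 on the minus strand. It had the largest difference of the 9 genes. Its log2 values were 10.29, 11.05 and 10.83 in involution replicates 1, 2 and 3, against 9.74 and 9.93 in nulliparous replicates 1 and 2. Every involution library was above both nulliparous libraries, with involution replicate 1 nearest to them. The difference was 0.89 ± 0.25 (log2, SE), or 1.86-fold, with an interval from 0.23 to 1.56. It did not pass in limma over rows with reads (adjusted p = 0.154) nor with the offset filter (adjusted p = 0.0523). Without involution replicate 1 the difference was 1.11 and passed with the offset filter (adjusted p = 0.0144 in limma). Among genes past that filter it was also called after upper quartile scaling (adjusted p = 0.0479 in limma) and quantile normalisation (0.043), both added after seeing the data. Exons of other genes cover 16.5% of its exon length, mostly a processed pseudogene, Gm15937, which stood at 3.57 to 3.68 in involution and 3.57 and 3.67 in nulliparous libraries.

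Ptger2, on chromosome 14 from 44988195 to 45003820, encodes EP2, the other Gs-coupled receptor of prostaglandin E2, and had the lowest mean of the 9. Its log2 values were 5.83, 5.20 and 4.62 in involution replicates 1, 2 and 3, against 5.70 and 5.09 in nulliparous replicates 1 and 2. Above the offset this is 12.8 to 45.0 scaled counts in involution and 22.2 and 40.0 in nulliparous libraries. The groups overlapped, and the difference of -0.17 ± 0.44 had an interval from -1.36 to 1.02 (adjusted p = 0.884 in limma). In both groups replicate 1 was highest, as it was for the means of 10 of 13 marker lists, among them the macrophage, endothelial and luminal epithelial lists given above, so the order singles out no cell type. Of the 14 macrophage markers 0 passed over rows with reads, beside 1.97% of all rows. With the offset filter Adgre1 and Lyz2 passed as higher, beside 6.65% higher over all genes. The summed scaled counts of the 14 markers were 17700, 11500 and 7010 in involution replicates 1, 2 and 3, against 6560 and 3830 in nulliparous replicates 1 and 2. No marker stood at the value of a row without reads. The part of any of these cell types in the Ptger2 values was not tested.

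Ptger1, the EP1 receptor gene, lies on chromosome 8 from 83666678 to 83672753 on the plus strand. It stood at 9.51, 9.60 and 9.32 in involution replicates 1, 2 and 3, against 9.47 and 9.66 in nulliparous replicates 1 and 2. The groups overlapped, with a difference of -0.09 ± 0.12 (log2, SE) and an interval from -0.40 to 0.22. This row is uncertain: the library kit does not mark strand, so reads of genes that overlap on opposite strands cannot be told apart.

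Ptgir, which encodes the Gs-coupled prostacyclin receptor IP, lies on chromosome 7 from 16906490 to 16910905. It stood at 9.08, 9.52 and 8.93 in involution replicates 1, 2 and 3, against 9.52 and 9.13 in nulliparous replicates 1 and 2. The highest involution and the highest nulliparous library were level. The difference was -0.15 ± 0.23 (log2, SE), with an interval from -0.77 to 0.47 (adjusted p = 0.763 in limma).

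Ptgfr, the prostaglandin F receptor gene, lies on chromosome 3 from 151796502 to 151837630 on the minus strand. In mice this receptor is best known for its role in regression of the corpus luteum before birth. Its log2 values were 8.21, 8.52 and 8.42 in involution replicates 1, 2 and 3, against 9.0 and 9.30 in nulliparous replicates 1 and 2. Every involution library was below both nulliparous libraries, and the gap between the groups exceeded the range within each. The difference was -0.77 ± 0.15 (log2, SE), a level 41.2% lower on the scale that includes the offset, with an interval from -1.17 to -0.37. Its adjusted p was 0.086 in limma over rows with reads and 0.0315 with the offset filter. Without any 1 of the 5 libraries it missed the threshold with the offset filter, at an adjusted p from 0.0645 to 0.154 in limma and a difference from -0.92 to -0.62. The predicted gene Gm43618, which overlaps 4.85% of its exon length on the other strand, stood at 4.09 to 4.40 in involution, against 4.46 and 4.73 in nulliparous libraries.

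Tbxa2r encodes the thromboxane receptor TP, known from platelets and vascular smooth muscle. It lies on chromosome 10 from 81328731 to 81335172 and was weakly expressed, at 5.08, 5.34 and 5.31 in involution replicates 1, 2 and 3, against 5.51 and 5.74 in nulliparous replicates 1 and 2. All involution libraries were below both nulliparous libraries, but the difference of -0.38 ± 0.20 (log2, SE) did not pass (adjusted p = 0.404 in limma, 0.304 past the offset filter), with an interval from -0.92 to 0.15. With the offset removed and 1 added it was -0.51. The summed scaled counts of 10 pericyte and smooth muscle markers were 9170, 6810 and 5010 in involution replicates 1, 2 and 3, against 13000 and 11500 in nulliparous replicates 1 and 2. Of the 10, 0 passed over rows with reads, beside 1.97% of all rows. Abcc9, the most abundant of the 10, weighs most in these sums. It stood at 11.77, 12.03 and 11.55, against 12.03 and 12.66 in the same order, and its groups overlapped. Of 7 platelet markers, the integrin genes Itga2b and Itgb3, which are not particular to platelets, had differences of -1.33 and -0.40. Itga2b passed over rows with reads and Itgb3 only past the offset filter. These genes carry most of the summed scaled counts of the list, which were 5620, 5380 and 5750 in involution libraries, against 8100 and 8400 in nulliparous libraries. The median difference of the list was 0.01, and Pf4, a platelet chemokine gene, stood at 6.70, 6.05 and 6.26 in involution libraries, against 6.15 and 5.49 in nulliparous libraries. The platelet genes Gp9, Gp5 and Ppbp stood at 3.56 to 4.20 in involution and 3.55 to 4.01 in nulliparous libraries, near the value of a row without reads. Gp1bb of the same list was above it, at 6.44, 6.64 and 7.22 in involution libraries, against 6.72 and 7.04 in nulliparous libraries. The part of these cells in the Tbxa2r values was not tested.

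Slco2a1, the prostaglandin uptake transporter gene, lies on chromosome 9 from 102988712 to 103096002 and had the highest mean log2 value of the 9 over the 5 libraries. Its values were 11.40, 11.65 and 11.92 in involution replicates 1, 2 and 3, against 12.54 and 11.78 in nulliparous replicates 1 and 2. Nulliparous replicate 1 stood above all other libraries, and nulliparous replicate 2 lay between involution replicates 2 and 3. The difference was -0.50 ± 0.29 (log2, SE), with an interval from -1.27 to 0.26 (adjusted p = 0.444 in limma, 0.237 past the offset filter). It was -0.12 without nulliparous replicate 1 and -0.88 without nulliparous replicate 2. The gene is known from endothelial cells among others. The summed scaled counts of 11 endothelial markers were 14500, 9090 and 8890 in involution replicates 1, 2 and 3, against 15400 and 10900 in nulliparous replicates 1 and 2. Of the 11, 0 passed over rows with reads, beside 1.97% of all rows. Within the involution group Slco2a1 was lowest in replicate 1, where this sum was highest, and within the nulliparous group both were highest in replicate 1. Tek, the most abundant endothelial marker, stood at 12.13, 12.17 and 12.47 in involution libraries, against 12.18 and 12.67 in nulliparous libraries. The part of endothelial cells in the Slco2a1 values was not tested.

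Abcc4, the exporter gene, lies on chromosome 14 from 118482692 to 118706219 and had the narrowest range of the 9 over the 5 libraries. It stood at 10.84, 10.83 and 10.70 in involution replicates 1, 2 and 3, against 10.64 and 10.66 in nulliparous replicates 1 and 2. Involution libraries were above both nulliparous libraries by a small margin. The difference was 0.13 ± 0.06 (log2, SE), or 1.10-fold, and did not pass (adjusted p = 0.359 in limma). Its interval, from -0.04 to 0.30, does not reach a log2 difference of 1 in either direction, and the same holds for Ptger1, Ptger3 and Ptgir. For Tbxa2r it holds on the scale that includes the offset, where its difference was -0.38. With the offset removed and 1 added that difference was -0.51, and no interval was computed there, so a 2-fold fall is not excluded.

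**Figure D2:**
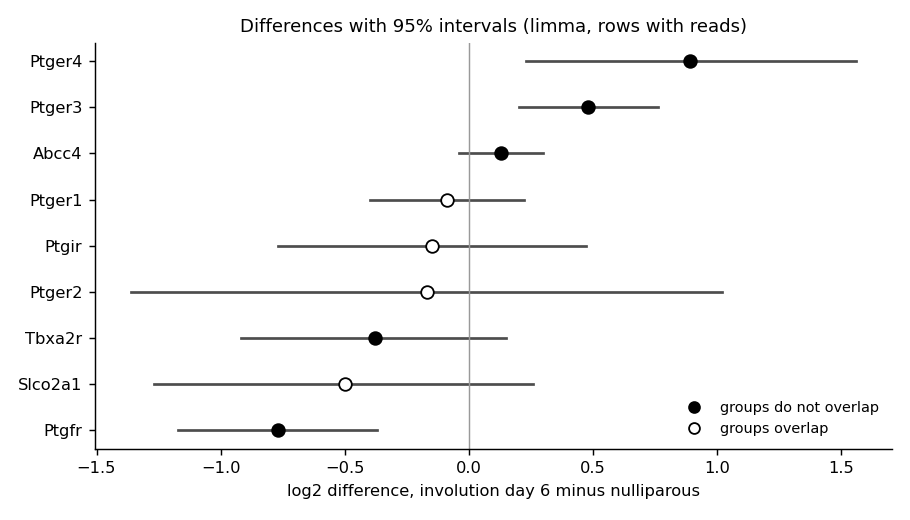
Log2 difference of each gene, involution day 6 minus nulliparous, with its 95% interval from limma over rows with reads; filled points mark genes whose groups do not overlap. Intervals of Ptger4 and Ptger3 lie above 0 and that of Ptgfr below 0 before adjustment for the number of genes tested.

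Levels of different genes were compared per kilobase of merged exon, on the scale of scaled counts above the offset. At involution day 6 Ptger3 was highest at 566 ± 5.05 (SD, n = 3), against 409 ± 63.2 (SD, n = 2) in nulliparous libraries. Abcc4, Ptger4 and Slco2a1 followed with the same n at 275 ± 15.0, 259 ± 65.9 and 240 ± 43.1 per kilobase, with ranges that overlapped each other. In nulliparous libraries these 3 stood at 250 ± 2.47, 136 ± 12.7 and 350 ± 128. Ptgir and Ptger1 stood at 173 ± 39.2 and 129 ± 12.6 in involution and at 191 ± 37.1 and 137 ± 13 in nulliparous libraries, with the reservation about Ptger1 given above. Ptgfr was at 47.6 ± 5.32 and 82.4 ± 12.4, Tbxa2r at 13.6 ± 1.91 and 19.7 ± 2.89, and Ptger2 at 5.32 ± 3.14 and 5.99 ± 2.43 in the same order of groups. Below Ptger1, neighbours in this order did not overlap. Ptger4 lay above Ptger1 in every involution library, while in nulliparous libraries their ranges overlapped. With the length of the longest transcript, Slco2a1 and Ptger4 stood at 457 and 456 per kilobase at involution day 6, ahead of Abcc4 at 307.

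**Figure D3:**
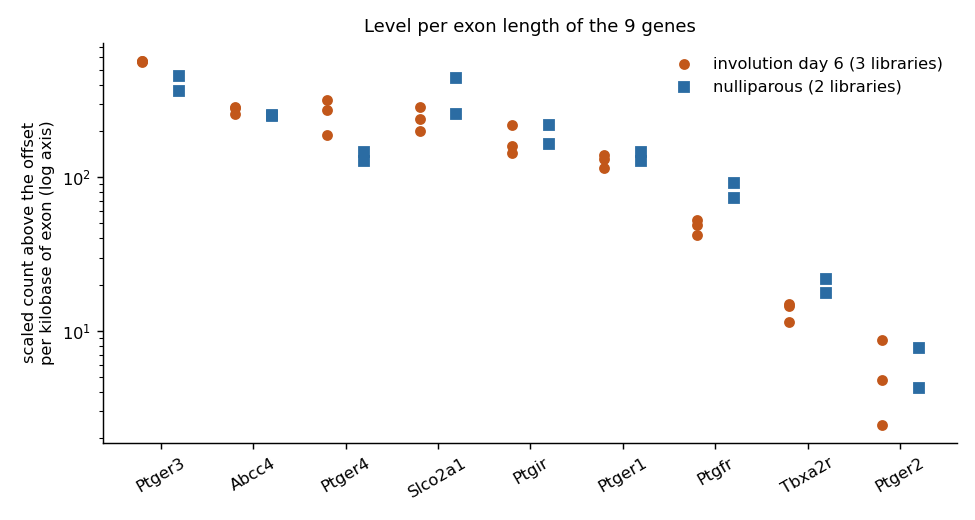
Scaled counts above the offset per kilobase of merged exon for the 9 genes on a log axis, with 1 point per library, involution day 6 left of nulliparous. Ptger3 is highest in every involution library and Ptger2 lowest in every library of both groups.

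Among the 7 receptors, the share of each in their summed level per kilobase gives the make-up of a library. Ptger3 took 51.3%, 42.9% and 48.9% in involution replicates 1, 2 and 3, against 38.9% and 44.2% in nulliparous replicates 1 and 2. Ptger4 took 16.9%, 24.3% and 23.3%, against 13.6% and 14.1%. Ptger3 shares overlapped between the groups and Ptger4 shares did not. The Gs-coupled receptors together took 32.0% to 41.2% in involution and 37.6% and 30.6% in nulliparous libraries, while the Ptgir share was 12.3% to 16.6% in involution, against 23.2% and 16.1%. The Gq-coupled genes Ptgfr and Tbxa2r, without Ptger1, together took 4.8% to 5.43% in involution, against 9.76% and 11% in nulliparous libraries. With Ptger1 the Gq share was 15.3% to 16.7% in involution, against 23.4% and 25.2%. The uncertain Ptger1 row is part of every total, at 9.86% to 11.9% in involution, against 13.7% and 14.2%. Shares depend on the length used. With the longest transcript Ptger3 took 46.8% to 56.0% in involution, against 45.5% and 50.3% in nulliparous libraries. Ptger4 then took 20.5% to 29.3%, against 17.5% and 17.8%, and the Gq share with Ptger1 was 11.4% to 12.8%, against 19.0% and 19.9%. Ptgir took 8.31% to 11.5%, against 17.2% and 11.6%, so its shares did not overlap, unlike with merged exons. All these shares restate the values above and were not tested.

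**Figure D4:**
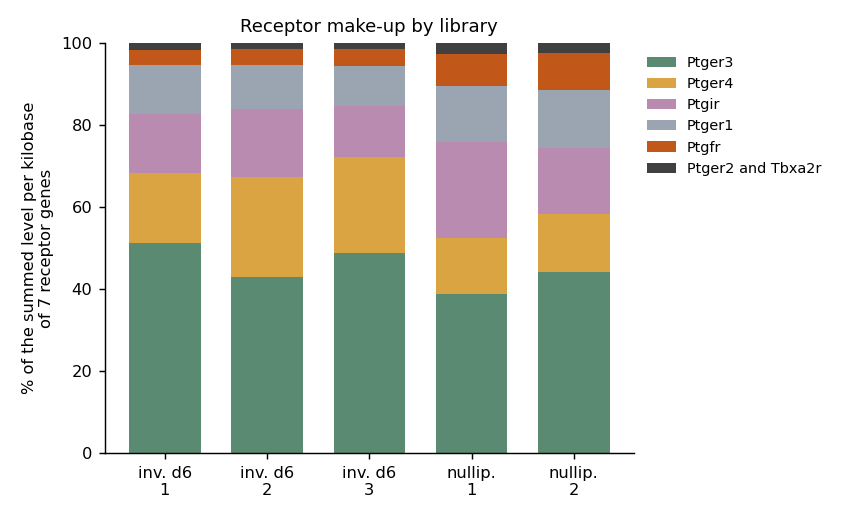
Share of each receptor gene in the summed level per kilobase of the 7 receptor genes, as stacked bars, 1 bar per library (inv. d6, involution day 6; nullip., nulliparous). Ptgfr takes 3.77% to 4.19% of each involution library, against 7.87% and 8.88% of the nulliparous libraries.

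The enzymes that make and break down prostanoids were compared beside the receptors. Of 18 such genes 1 passed over rows with reads and 17 did not, beside 1.97% that passed over all rows. This was Pla2g2e, a secreted phospholipase gene, which rose 7.82-fold at involution day 6 on the scale that includes the offset (adjusted p = 0.0389 in limma). It stood at 7.31, 7.90 and 7.53 in involution libraries, against 4.40 and 4.83 in nulliparous libraries. The nulliparous values lie near that of a row without reads, and with the offset removed the means were 182 and 12.9 scaled counts, a ratio of 14.1. Past the offset filter 4 of 17 were higher and 0 lower, beside 6.65% higher and 4.66% lower over all genes, with a median difference of 0.24, against -0.03 over all genes. Besides Pla2g2e these were Ptges, which encodes a prostaglandin E synthase (1.5-fold), and the prostaglandin reductase genes Ptgr1 (1.71-fold) and Ptgr2 (1.24-fold). Exons of other genes cover 32.0% of Ptgr2. Ptgs2, the cyclooxygenase 2 gene, varied widely within both groups, at 11.16, 11.47 and 13 in involution replicates 1, 2 and 3, against 10.99 and 13.27 in nulliparous replicates 1 and 2. The prostaglandin D receptor genes Ptgdr and Ptgdr2 were at 3.77 to 4.38 and 3.68 to 4.05 in involution, against 3.54 and 3.57 and 3.56 and 3.80 in nulliparous libraries, near the value of a row without reads.

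Signal transduction genes were read from lists of the proteins to which these receptors couple. Of 34 genes of Gs and Gi coupling and cyclic AMP handling, 1 fell at involution day 6 and 0 rose over rows with reads. Of all rows, 1.97% passed in either direction. The gene that fell was Adcy6, an adenylyl cyclase gene. Its values were 12.37, 12.25 and 12.30 in involution libraries, against 12.75 and 12.79 in nulliparous libraries, a difference of -0.46 ± 0.06 (adjusted p = 0.0475 in limma). Past the offset filter 4 of 33 were lower and 0 higher, beside 4.66% lower and 6.65% higher over all genes. The median difference of the list was -0.13, against -0.03 over all genes. Besides Adcy6 these were Adcy9, another adenylyl cyclase gene, with a difference of -0.44, Gnas, which encodes the Gs alpha subunit, with -0.56, and Creb1, a cyclic AMP-responsive transcription factor gene, with -0.40. Exons of other genes cover 22.0% of Gnas. Other genes of the list had higher values without passing, among them Pde4b with a difference of 0.92 and Adcy7 with 0.56. Over rows with reads 13 of the 34 had an unadjusted p below 0.05 in limma, beside 19.9% of all rows. The groups did not overlap for 8 with higher and 13 with lower values, beside 47.0% of all genes past the offset filter in either direction. The most abundant of the list were Gnai2 and Prkar1a, a protein kinase A regulatory subunit gene, and Prkar1a overlapped between the groups. Gnai2, a Gi alpha subunit gene, stood at 13.61 to 13.69 in involution, against 13.47 and 13.34 in nulliparous libraries, and did not pass (adjusted p = 0.151 in limma).

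Of 17 genes of Gq, G12 and G13 coupling, 0 passed over rows with reads, beside 1.97% of all rows. An unadjusted p below 0.05 in limma was found for 9, beside 19.9% of all rows. Past the offset filter 3 of 17 were lower and 0 higher, beside 4.66% and 6.65% over all genes, with a median of -0.13, against -0.03. The 3 were the calcium release channel genes Itpr1, with a difference of -0.75, and Itpr2, with -0.32, and the phospholipase C gene Plcb4, with -0.60. Arhgef12 and Rhoa, the most abundant of the list, which act downstream of G12 and G13, overlapped between the groups. Of 13 receptor kinase, arrestin and RGS genes 0 passed over rows with reads, beside the same 1.97%. An unadjusted p below 0.05 in limma was found for 6, beside the same 19.9%. Rgs2, an inhibitor of Gq signalling, was the 1 gene of the 13 called past the offset filter, where 4.66% of all genes were lower (adjusted p = 0.0152 in limma), with a difference of -1.20 ± 0.22 (log2, SE over rows with reads). It stood at 9.72, 9.86 and 10.16 in involution libraries, against 10.86 and 11.38 in nulliparous libraries. The most abundant of the list were the arrestin gene Arrb1 and the receptor kinase gene Adrbk1, with differences of -0.74 and -0.20, which did not pass (adjusted p = 0.185 and 0.247 in limma).

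Of 16 textbook target genes of cyclic AMP and CREB, Areg fell and 0 rose over rows with reads. Over all rows 1.97% passed in either direction. Areg, the amphiregulin gene, which encodes a ligand of the EGF receptor, stood at 4.12 to 4.96 in involution, against 11.09 and 9.21 in nulliparous libraries (adjusted p = 0.0451 in limma). Most luminal epithelial markers also had lower means at involution day 6, without passing, among them Krt19 with a difference of -1.99, Prlr with -2.27, Krt18 with -1.59 and Krt8 with -1.57. Csn2 and Csn3 of that list had higher means at involution day 6 without passing, by 3.27 and 2.26, and Elf5 differed by -0.11. Areg is known from luminal epithelium. Its nulliparous replicate 1 was above replicate 2, as for Krt19, Prlr, Krt18 and Krt8 and for the means of most marker lists. In involution replicates 1, 2 and 3 Areg stood at 4.96, 4.12 and 4.52, and Krt8 at 11.36, 10.08 and 8.80. The part of epithelial RNA in the Areg values was not tested. Past the offset filter 3 of 16 were lower and 1 higher, beside 4.66% lower and 6.65% higher over all genes, with a median of 0.04, against -0.03. The nuclear receptor genes Nr4a1 and Nr4a2 had differences of -1.51 and -0.94, and Ppargc1a, a transcriptional coactivator gene, of 2.15. Fos and Fosb, the most abundant of the list and also induced when tissue is dissociated, overlapped between the groups. The part of tissue dissociation in the values of this list, Nr4a1 and Nr4a2 included, was not tested. Fos stood at 17.07 to 17.34 in involution, against 16.55 and 17.43 in nulliparous libraries.

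**Figure D5:**
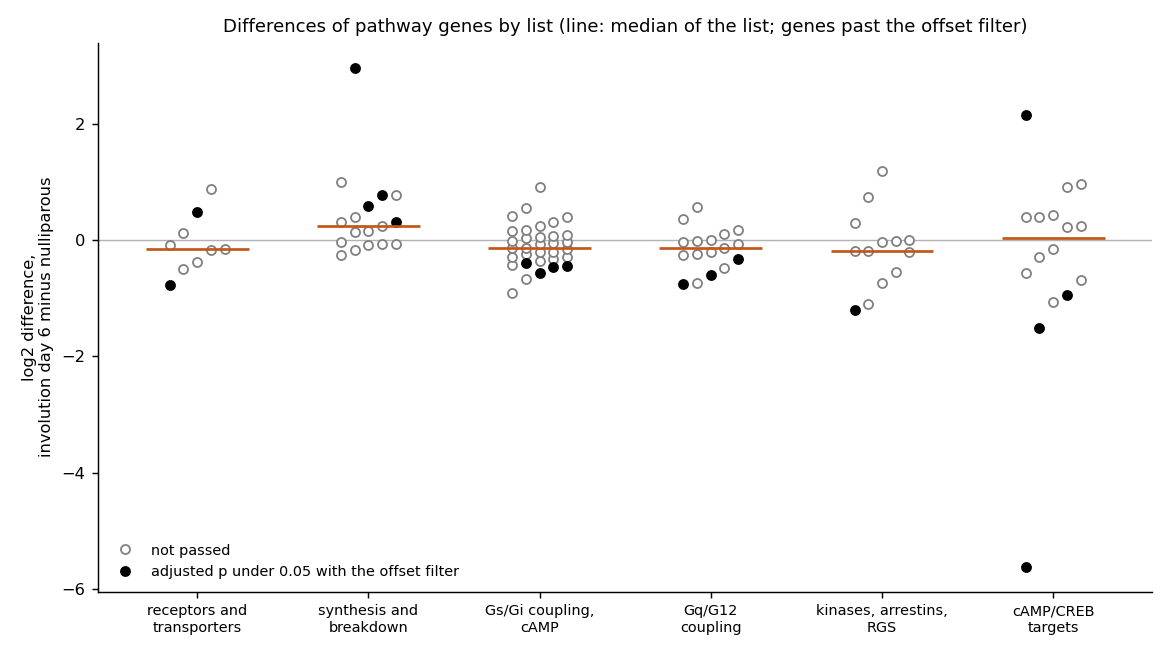
Log2 difference of each gene past the offset filter, involution day 6 minus nulliparous, for the 9 receptor and transporter genes and 5 lists of pathway genes; filled points have an adjusted p under 0.05 with the offset filter and lines are list medians, from -0.18 to 0.24. All filled points of the Gs and Gi, Gq and G12, and receptor kinase lists lie below 0.

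Profiles most like those of Ptger4 and Ptgfr, the genes with the largest differences in each direction, were sought among 13930 named genes past the offset filter. Likeness was the root mean square distance between log2 profiles over the 5 libraries, each centred on its own mean. The nearest to Ptger4 were Arid5a, Neurl2 and Rab32, at distances of 0.06, 0.07 and 0.07. Arid5a stood at 10.95, 11.66 and 11.33 in involution libraries, against 10.28 and 10.47 in nulliparous libraries. The nearest to Ptgfr were Cachd1, Pex5l and Filip1l, at 0.02, 0.05 and 0.05. Cachd1 stood at 11.04, 11.41 and 11.32, against 11.86 and 12.17. With 5 libraries in 2 groups, many genes have near profiles, and the distances are a description only.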

How the data were processed

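RNA of 5 libraries was sequenced, 3 from involution day 6 and 2 from nulliparous glands, and prepared with the TruSeq V2 kit per the labels' protocols. Base calling with bcl2fastq and alignment with STAR 2.4.2a to GRCm38 are per the submitters' processing notes. The authors deposited log2 values of scaled counts. No source at hand names the counting tool, the annotation, the scaling or the offset. The offset was read from 17395 rows without reads. Depth per gene is unknown, so the spread between libraries is the measure of error.

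Groups were compared with limma 3.58.1 in R 4.3.3 (moderated test with a mean trend, two-sided, Benjamini-Hochberg over all 28311 rows with reads). The offset filter, a mean of at least 4.45, and the other alternatives are in the closing section. The test was checked on simulated data whose noise was drawn independently for each gene and library, so variation shared between genes of a library was not covered. Symbols came from the file; coordinates, exon lengths and overlaps came from GENCODE M21 on GRCm38. Levels per kilobase were unlogged values minus the offset, divided by exon length. Members, lists and filters were chosen with earlier results of these data known. Named were the 9 genes, genes of the pathway lists past the threshold and the most abundant of each of these lists, and the nearest profiles. Of the marker lists only some genes are named, and others past the threshold or most abundant are not. Itga2b, Itgb3, Pf4, Gp9, Gp5, Ppbp, Gp1bb, Adgre1, Krt19, Prlr, Krt18, Krt8, Csn3, Elf5, Ptgdr2, Pde4b, Adcy7 and the overlapping genes were named after their values were seen. An item that bears on the Ptger1 row is not reported here.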

Additional observations from a re-analysis of the deposited data

How the results depend on the processing

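Over all genes, 322 were higher and 235 lower in limma over rows with reads. The counts were 1058 and 742 with the offset filter, 147 and 180 with no filter, 750 and 448 with medians aligned, and 543 and 423 with the offset removed and 1 added. They were 1075 and 733 with 5 added and the offset filter, and 631 and 417 with a robust prior. With the offset filter and upper quartile scaling, aligned medians or quantile normalisation, all added after seeing the data, they were 1077 and 740, 1068 and 622, and 1065 and 807. Without 1 library they were 0 and 0 in limma over rows with reads, where 4489 to 5407 unadjusted p-values were below 0.05. Past the offset filter they then ran from 296 to 786 and from 208 to 483, with 710 and 447 without involution replicate 1. The replicate block gave 0 and 0 in limma over rows with reads, where 5618 unadjusted p-values were below 0.05, and 1817 and 1449 with the offset filter. In this block involution replicate 3 has no nulliparous library of its number. The differences therefore rest on replicates 1 and 2 of each group and equal those without involution replicate 3. Deviations from the group mean had a Pearson r across genes of 0.577 between libraries of number 1 and 0.063 between those of number 2. Involution replicate 3 had 0.51 with nulliparous replicate 2. With 2 nulliparous libraries the deviations of one mirror those of the other, so these values cannot decide whether numbers mark pairs. The numbers were not taken as pairs.

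Of the 9 genes, 0 higher and 0 lower passed over rows with reads under every scaling, offset and prior tried. With the offset filter 1 and 1 passed, also with 5 added and with medians aligned. With upper quartile scaling or quantile normalisation they were 2 and 1, Ptger4 being the second. The replicate block also gave 2 and 1, but its differences leave out involution replicate 3, so it is no separate check on all 5 libraries. Without 1 library the counts of higher genes ran from 0 to 1. Ptger3, Ptger4, Abcc4, Ptgfr, Tbxa2r and Slco2a1 kept their direction in all 24 alternatives. The sign of 3 others, none past the threshold anywhere, changed. Ptger2 was at 0.12 with the replicate block and from -0.48 to 0.13 without 1 library, Ptger1 from -0.19 to 0.01 and Ptgir from -0.35 to 0.05.

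Among the lists, the offset filter changed counts to 2 higher transporters, 4 higher enzymes, 4 lower genes of cyclic AMP coupling, 3 lower of Gq coupling, 1 lower of receptor kinases and RGS, and 1 higher and 3 lower cyclic AMP targets. The cause of these changes was not tested.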

Other observations

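Other genes of the transporter families of Slco2a1 and Abcc4 were read beside them. Of 18 with reads, 0 passed in limma over rows with reads, beside 1.97% of all rows. An unadjusted p below 0.05 in limma was found for 4, beside 19.9% of all rows. Past the offset filter 2 of 9, Slco5a1 and Slco2b1, were higher at involution day 6 and 0 were lower, beside 6.65% higher and 4.66% lower over all genes. Abcc5, an exporter gene, and Abcc9, which encodes a regulatory subunit of potassium channels, were the most abundant of the list and overlapped between the groups. Slco5a1 stood at 7.60, 7.63 and 7.63 in involution replicates 1, 2 and 3, against 5.94 and 6.38 in nulliparous replicates 1 and 2, a 2.75-fold difference (adjusted p = 0.00887 in limma with the offset filter). Slco2b1, an uptake transporter of steroid sulfates and other anions, stood at 11.18, 10.77 and 11.20, against 10.14 and 10.28, a 1.79-fold difference (adjusted p = 0.0207 in limma with the offset filter). Ptgfrn, whose product binds the prostaglandin F receptor, was far more abundant in log2 values than the receptor gene itself, at 14.88, 14.93 and 14.68 in involution, against 14.42 and 14.49 in nulliparous libraries. It was 1.3-fold higher without passing (adjusted p = 0.17 in limma over rows with reads and 0.0929 with the offset filter).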
